A study of Nothobranchius furzeri with 24 samples.

Results

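The genes described here had a near constant median level in the brain of wild turquoise killifish (Nothobranchius furzeri) between 39 and 73 days post hatch (dph). Their median was higher at 108 dph. They were picked by a rule on the RPM of each gene, the reads of the gene scaled to a common library total. For each age the median over 8 fish of log2(RPM + 0.5) was taken. The early step is the median at 73 dph minus that at 39 dph, and the late step is the median at 108 dph minus that at 73 dph. A gene was kept when its median was at least 1 RPM at each age, its early step lay between -0.15 and 0.15, its late step was at least 0.3, and its late step was above 0 in females alone and in males alone. Of 26739 genes, 16954 reached the level minimum at each age and 415 met every condition, and the 150 with the largest late step are the members. All 150 were also kept by the filter on low counts of the tests, which kept 19358 genes.

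Fish of the population A41 (strain label MZM_A41) were caught in their natural habitat, and whole brains were sequenced from 4 females and 4 males per age, at 39, 73 and 108 dph. The labels name no treatment or transgene, and no fish gave more than 1 library. Fish of different ages were taken at different times of a single rainy season, so age and time of capture cannot be told apart. In RNA from whole brains, more cells of a type and more RNA per cell cannot be told apart either.

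The turquoise killifish lives in seasonal ponds, completes its life within months and is used as a model of vertebrate aging. Its brain keeps growing new neurons in adult life, and this activity declines with age, as does the upkeep of proteins, while glial and immune genes often rise. The products of the members with a name include matrix and adhesion proteins, receptors and kinases, transcription factors, ion channels and transporters, chaperones and secretory proteins.

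The median library had 17954300 reads assigned to genes. 2 libraries were shallow, 39 dph female replicate 4 with 4595506 reads and 39 dph male replicate 4 with 10019750, and the other 22 lay between 14219725 and 19346170. One RPM stood for 4.60 reads in the shallowest library. The label of whole brain was checked against markers: genes of neurons summed to 5832 to 7041 RPM in every fish and genes of astrocytes and radial glia to 5193 to 9468 RPM. Of 11 symbols of the pituitary only 2 were paired with a gene, and these summed to 1.93 to 4382 RPM among fish. No member with a symbol is on that list, and members without one could not be placed. Symbols of T and B cells and of photoreceptors were paired with no gene.

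Only 48 members (32.0%) could be given a symbol, against 42.1% of the genes at the level minimum. The names came from the study's own gene tables, which hold genes that the study had called in its comparisons, so the named members are not a neutral sample. The other 102 are given by their locus identifier. Copies of 1 gene, marked for example as 1 OF 2, can share reads, and their levels are less certain.

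Over the 150 members the late step ranged from 0.45 to 1.45 with a median of 0.55 on the log2 scale, beside a median of 0.0021 over all genes at the level minimum. 10 members had a late step over 1, 95 one of 0.5 to 1, and 45 one below 0.5. The ratio of the median RPM at 108 dph to that at 73 dph lay between 1.37 and 2.87, with a median of 1.53. The early step ranged from -0.15 to 0.15 with a median of -0.0010. These values chose the members, so they describe them and are no test. The smallest late steps that were kept were those of Nfu_g_1_006197 (0.453), Nfu_g_1_008871 (0.453) and ANXA5B (0.452), and the next genes left out were STK10 (0.451), Nfu_g_1_012528 (0.4505) and SESN1 (0.4497). At the upper bound of the early step, Nfu_g_1_000390 (0.1468), Nfu_g_1_008133 (0.1468) and Nfu_g_1_006102 (0.1486) were inside, and Nfu_g_1_019226 (0.1508), PRODH (0.1515) and Nfu_g_1_006655 (0.1516) were outside. At the lower bound, Nfu_g_1_015217 (-0.1438), Nfu_g_1_010659 (-0.145) and LRRC8C (-0.1453) were inside, and Nfu_g_1_010384 (-0.1508), DEPDC5 (-0.1508) and Nfu_g_1_000326 (-0.1509) were outside. No gap in the values marks either bound.

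**Figure D1:**
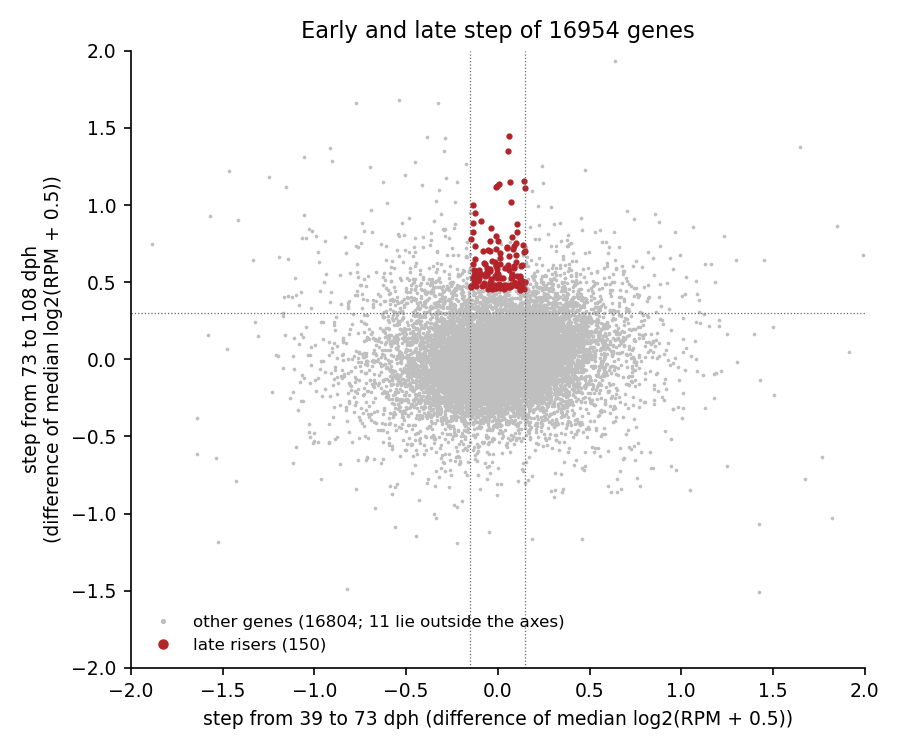
Each point is 1 of 16954 genes, with the step from 39 to 73 dph on the horizontal and the step from 73 to 108 dph on the vertical axis, both as differences of the median log2(RPM + 0.5); red points are the 150 members, dotted lines mark -0.15, 0.15 and 0.3, and 11 genes lie outside the axes. The members are the top of the cloud inside the dotted strip, with late steps from 0.45 to 1.45, and no empty space separates them from the genes below.

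The mean level of the members was followed in single fish. For each fish, log2(RPM + 0.5) of every member was set against the mean of that member over all fish of 39 and 73 dph. These differences were then averaged over the 150. By construction the younger fish centre on this reference. The old fish lie above it on average because the rule chose the members by their late step. The values of old fish in this paragraph therefore describe the members and are no test of a rise. The averaged difference lay between -0.08 and 0.06 in fish of 39 dph and between -0.16 and 0.20 in fish of 73 dph. In fish of 108 dph it lay between 0.25 and 0.69. The lowest old fish was 108 dph male replicate 4 at 0.25, and the next was 108 dph male replicate 1 at 0.46. The highest were 108 dph female replicate 1 at 0.69 and 108 dph female replicate 2 at 0.66. In old fish between 69.3% and 98.7% of the members stood above their own median of 73 dph, with a median over fish of 93.0%. The share of 69.3% belonged to 108 dph male replicate 4, whose library of 17714599 reads was not shallow. This fish was the lowest of the 8 old fish for 51 members. The highest of all 24 values belonged to a fish of 108 dph for 136 members, and 35 of these were in 108 dph female replicate 1. The share of all genes with their highest value in an old fish was not computed. The rule chose members with a high median at 108 dph, so nothing is read from this count.

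**Figure D2:**
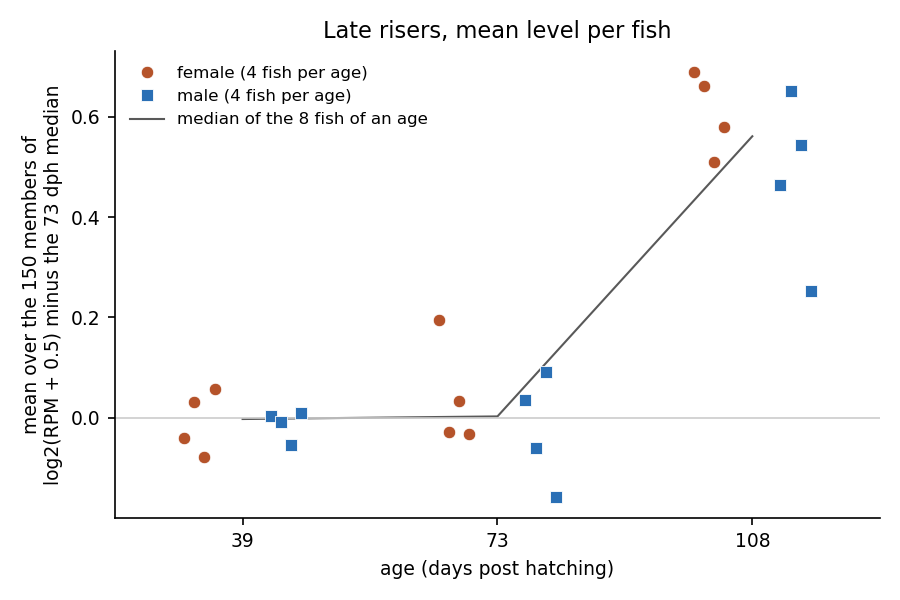
Each point is 1 fish, with age on the horizontal axis. The vertical axis gives log2(RPM + 0.5) minus each member's mean over all fish of 39 and 73 dph, averaged over the 150 members. The printed axis label names the 73 dph median, which was not the reference used. Circles are females, squares males, and the line joins the medians of 8 fish. Fish of 39 and 73 dph lie between -0.16 and 0.20, and fish of 108 dph between 0.25 and 0.69, with 108 dph male replicate 4 lowest. The rule chose the members by their late step, so the higher values at 108 dph are no test.

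Single members did not all separate old from younger fish. In 74 members (49.3%) at least 4 of the 8 old fish stood above every fish of 39 and 73 dph, while 14 members had no such old fish. The share of genes at the level minimum with at least 4 such old fish was 8.75%. Every fish of 108 dph stood above every fish of 73 dph in 7 members (4.67%), beside 0.596% of the genes at the level minimum. These were PROS1, MYLK4B, PQLC2, FBXO33, Nfu_g_1_004568, Nfu_g_1_001443 and Nfu_g_1_008871. In FBXO33, Nfu_g_1_001443 and Nfu_g_1_008871 every old fish was also above every fish of 39 dph, as in 0.442% of the genes at the level minimum. The rule used these values, and nothing is read from the shares.

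The largest late step was that of Nfu_g_1_021249, which has no symbol. Its level ran from 3.21 to 15.7 RPM with a median of 8.16 at 39 dph, from 4.88 to 13.4 RPM with a median of 8.46 at 73 dph, and from 7.49 to 45.9 RPM with a median of 23.9 at 108 dph. 6 old fish stood above all younger fish, and the other 2, at 7.49 and 11.4 RPM, lay within the younger range. Of the 15 members with the largest late step, 11 have a locus identifier only: besides Nfu_g_1_021249 these are Nfu_g_1_021367, Nfu_g_1_011996, Nfu_g_1_001607, Nfu_g_1_019730, Nfu_g_1_023786, Nfu_g_1_000390, Nfu_g_1_009030, Nfu_g_1_005571, Nfu_g_1_004568 and Nfu_g_1_017099. Some had widely scattered values. Nfu_g_1_019730 ran from 0.218 to 16.9 RPM at 73 dph and from 0 to 19.3 RPM at 108 dph, and its log2 fold change of 108 versus 73 dph in edgeR, which weighs all fish, was 0.73 with a standard error (SE) of 0.76. It was the only member with no read in a library, that of 108 dph male replicate 4. Nfu_g_1_005571 likewise ran from 1.16 to 14.5 RPM at 73 dph and from 0.162 to 14.8 RPM at 108 dph, with 0.51 (SE 0.57).

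The members with a symbol were grouped by textbook role, 41 of them in 7 groups, and the remaining 7 were left ungrouped. These groups were drawn up with the values known. Fold changes of single genes in the following are edgeR log2 fold changes of 108 versus 73 dph with both sexes in the model, given with their SE as a description. Where only medians are given, they are values that the rule used, and they do not mean that a change passed a test.

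Matrix and cell surface proteins held 8 members, with late steps from 0.47 to 1.00. In 6 of these at least 4 old fish were above all younger fish. So they were in 3 of 8 receptors and signalling proteins, 5 of 8 of transcription and nuclear export, and 4 of 6 channels and transporters. The counts were 3 of 4 for protein handling and secretion, 3 of 5 for cytoskeleton and membrane, and 0 of 2 for metabolic enzymes. The share was 49.3% over all members and 8.75% over genes at the level minimum, and nothing is read from the groups. PROS1, the vitamin K-dependent protein S that limits blood clotting and is a ligand of receptors for the uptake of dying cells, ran from 9.36 to 20.2 RPM with a median of 13.1 at 39 dph and from 10.2 to 13.6 RPM with a median of 11.96 at 73 dph. At 108 dph it ran from 18.7 to 43.4 RPM with a median of 23.6, and its log2 fold change was 1.12 (SE 0.15). The old fish did not overlap with those of 73 dph, and 1 of them lay within the range of 39 dph, whose highest fish stood at 20.2 RPM. VCANA, a copy of the matrix proteoglycan versican, was at 0.928 to 5.03 RPM with a median of 1.58 at 73 dph and at 1.64 to 7.003 RPM with a median of 3.72 at 108 dph. Its old and younger fish overlapped widely, with 2 old fish above all others.

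COLQ, the collagen tail that anchors acetylcholinesterase in the synaptic matrix, was at 3.69 to 11.5 RPM with a median of 7.97 at 39 dph, at 5.62 to 11.997 RPM with a median of 7.93 at 73 dph and at 4.85 to 18.4 RPM with a median of 14.1 at 108 dph. The old fish split: 5 lay between 14.1 and 18.4 RPM, above all younger fish, and 108 dph female replicate 1 (11.4 RPM), 108 dph male replicate 2 (7.97 RPM) and 108 dph male replicate 4 (4.85 RPM) were within the younger range. The other members of the group were COLGALT1, which adds galactose to collagen (log2 fold change 0.77, SE 0.20), the membrane metalloproteinase MMP15 (1 OF 2) (0.50, SE 0.18), NADL1.1, a copy of the neural adhesion protein L1CAM (0.45, SE 0.16), the asialoglycoprotein receptor ASGR1 (0.66, SE 0.15) and ITGAL, an integrin chain of white blood cells (0.58, SE 0.17). ITGAL stood at 1.802 to 2.47 RPM at 73 dph and at 1.90 to 4.51 RPM at 108 dph. Its partner ITGB2, on the list of microglia and macrophages, had medians of 59.7 RPM at 73 dph and 58.8 RPM at 108 dph. Only 2 genes of that list were found, both without a call in either step, and the part of white blood cells in the level of ITGAL was not tested.

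Receptors and signalling proteins also held 8 members, with late steps from 0.49 to 0.90. MYLK4B, a myosin light chain kinase, ran from 1.25 to 2.70 RPM with a median of 1.58 at 39 dph, from 0.990 to 2.14 RPM with a median of 1.45 at 73 dph and from 2.33 to 3.59 RPM with a median of 3.13 at 108 dph. Old fish were above all fish of 73 dph, 6 of them also above all fish of 39 dph, with a log2 fold change of 0.91 (SE 0.18). IRS2, an adaptor of the insulin and IGF-1 receptors, had medians of 12.1 RPM at 73 dph and 18.0 RPM at 108 dph. PTK2BA, a copy of the calcium-regulated kinase PYK2, went from 2.69 to 4.16 RPM in the medians, with 6 old fish above all others. The R-spondin receptor LGR5, which strengthens Wnt signalling and marks stem cells in many tissues, went from 4.21 to 6.40 RPM with 1 old fish above all others. AVPR1A (1 OF 2), a vasopressin receptor of the kind that in fish binds vasotocin, went from 2.72 to 4.02 RPM, and the kinase TAOK2 (1 OF 2) from 5.52 to 9.27 RPM. GUCY2F, known in mammals as a guanylate cyclase of photoreceptors, went from 8.62 to 13.4 RPM.

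Transcription and nuclear export held 8 members, with late steps from 0.46 to 0.79. SKOR1B, a corepressor of the Ski family, ran from 1.75 to 5.77 RPM at 73 dph and from 2.54 to 12.1 RPM at 108 dph, with medians of 4.21 and 7.72 RPM. Its 6 highest old fish were above all younger fish, and 108 dph male replicate 4 stood at 2.54 RPM. XPO1A, a copy of exportin 1, which carries proteins and RNA out of the nucleus, ran from 32.4 to 44.3 RPM at 73 dph and from 31.9 to 87.0 RPM at 108 dph, with medians of 40.2 and 56.2 RPM. Its lone low old fish was 108 dph male replicate 1 at 31.9 RPM, and the other 7 were above all younger fish. The transcriptional repressor BACH2 went from 12.3 to 17.7 RPM in the medians, the repressor BCL6AB from 16.9 to 23.4 RPM, RFX7, of the RFX family of transcription factors, from 10.7 to 15.2 RPM, NFIC, of the nuclear factor I family, from 3.25 to 4.94 RPM, and the corepressor RUNX1T1 from 1.51 to 2.48 RPM. RUNX1T1 had no old fish above all younger ones. The zinc finger gene ZFAT is described with the sexes.

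Channels and transporters held 6 members, with late steps from 0.47 to 0.67. KCNJ13, the inward rectifier potassium channel Kir7.1 of the choroid plexus and retinal pigment epithelium in mammals, was at 2.45 to 3.70 RPM with a median of 2.84 at 39 dph and at 2.65 to 3.79 RPM with a median of 2.99 at 73 dph. At 108 dph it ran from 1.86 to 6.22 RPM with a median of 5.08. Like COLQ it split the old fish: 6 stood between 3.83 and 6.22 RPM, above all younger fish, while 108 dph male replicate 2 (2.95 RPM) and 108 dph male replicate 4 (1.86 RPM) did not. Of the list of ependyma and choroid plexus, which KCNJ13 is on, the other genes found were FOXJ1, RSPH1 and TEKT1, all of ciliated cells, with medians at 73 dph of 0.243, 1.32 and 4.24 RPM. The summed level of the list includes KCNJ13 itself. It was 7.28 to 10.7 RPM at 39 dph, 5.38 to 14.2 RPM at 73 dph and 5.70 to 21.8 RPM at 108 dph. None of the 3 tested genes of the list, KCNJ13 among them, was called in either step. Their median log2 fold change of 108 versus 73 dph was 0.39. Between 108 and 39 dph 1 of the 3 was called higher, where 19.0% of all genes tested were. The part of ependyma and choroid plexus in the level of KCNJ13 was not tested.

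PQLC2, a transporter of cationic amino acids out of the lysosome, was at 16.3 to 22.2 RPM with a median of 18.1 at 39 dph, at 13.0 to 18.6 RPM with a median of 16.7 at 73 dph and at 19.5 to 31.8 RPM with a median of 24.2 at 108 dph. No old fish overlapped with those of 73 dph, and the log2 fold change was 0.62 (SE 0.091). SLC16A6, of the monocarboxylate transporter family, ran from 24.2 to 35.9 RPM at 73 dph and from 24.3 to 75.2 RPM at 108 dph, with medians of 29.7 and 41.2 RPM and 4 old fish above all younger ones. The peroxisomal fatty acid transporter ABCD2 went from 10.4 to 15.03 RPM in the medians, LRRC8C, a subunit of volume-regulated anion channels, from 3.91 to 5.601 RPM, and SLC10A4, a protein of synaptic vesicles, from 5.91 to 8.41 RPM.

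Protein handling and secretion held 4 members. HSPB1, a small heat shock protein that keeps damaged proteins from clumping, was at 23.5 to 48.0 RPM with a median of 33.9 at 39 dph, at 20.9 to 45.9 RPM with a median of 34.1 at 73 dph and at 37.0 to 186 RPM with a median of 75.4 at 108 dph. Its late step of 1.13 was the largest of any member with a symbol. The old fish lay apart from each other: 3 of them, at 37.0, 38.6 and 43.1 RPM, were within the younger range, 4 lay between 73.5 and 91.2 RPM, and 108 dph female replicate 2 reached 186 RPM. FBXO33, the substrate-binding part of a ubiquitin ligase, was the reverse in its small spread. It ran from 127.8 to 145 RPM with a median of 134 at 39 dph, from 122 to 133 RPM with a median of 129.99 at 73 dph and from 157 to 203 RPM with a median of 180.2 at 108 dph. All old fish were above all younger fish, and the log2 fold change of 0.48 had an SE of 0.040, the smallest SE of all members, beside a late step of 0.47 near the lower end of the range. CHGB, chromogranin B of the dense-core granules that store neuropeptides, had the highest level of all members, with 142 to 264 RPM and a median of 214.5 at 39 dph, 176 to 283 RPM and a median of 229 at 73 dph, and 223 to 440 RPM and a median of 322 at 108 dph. The cochaperone BAG5 went from 2.38 to 3.64 RPM in the medians, with no old fish above all younger ones.

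**Figure D3:**
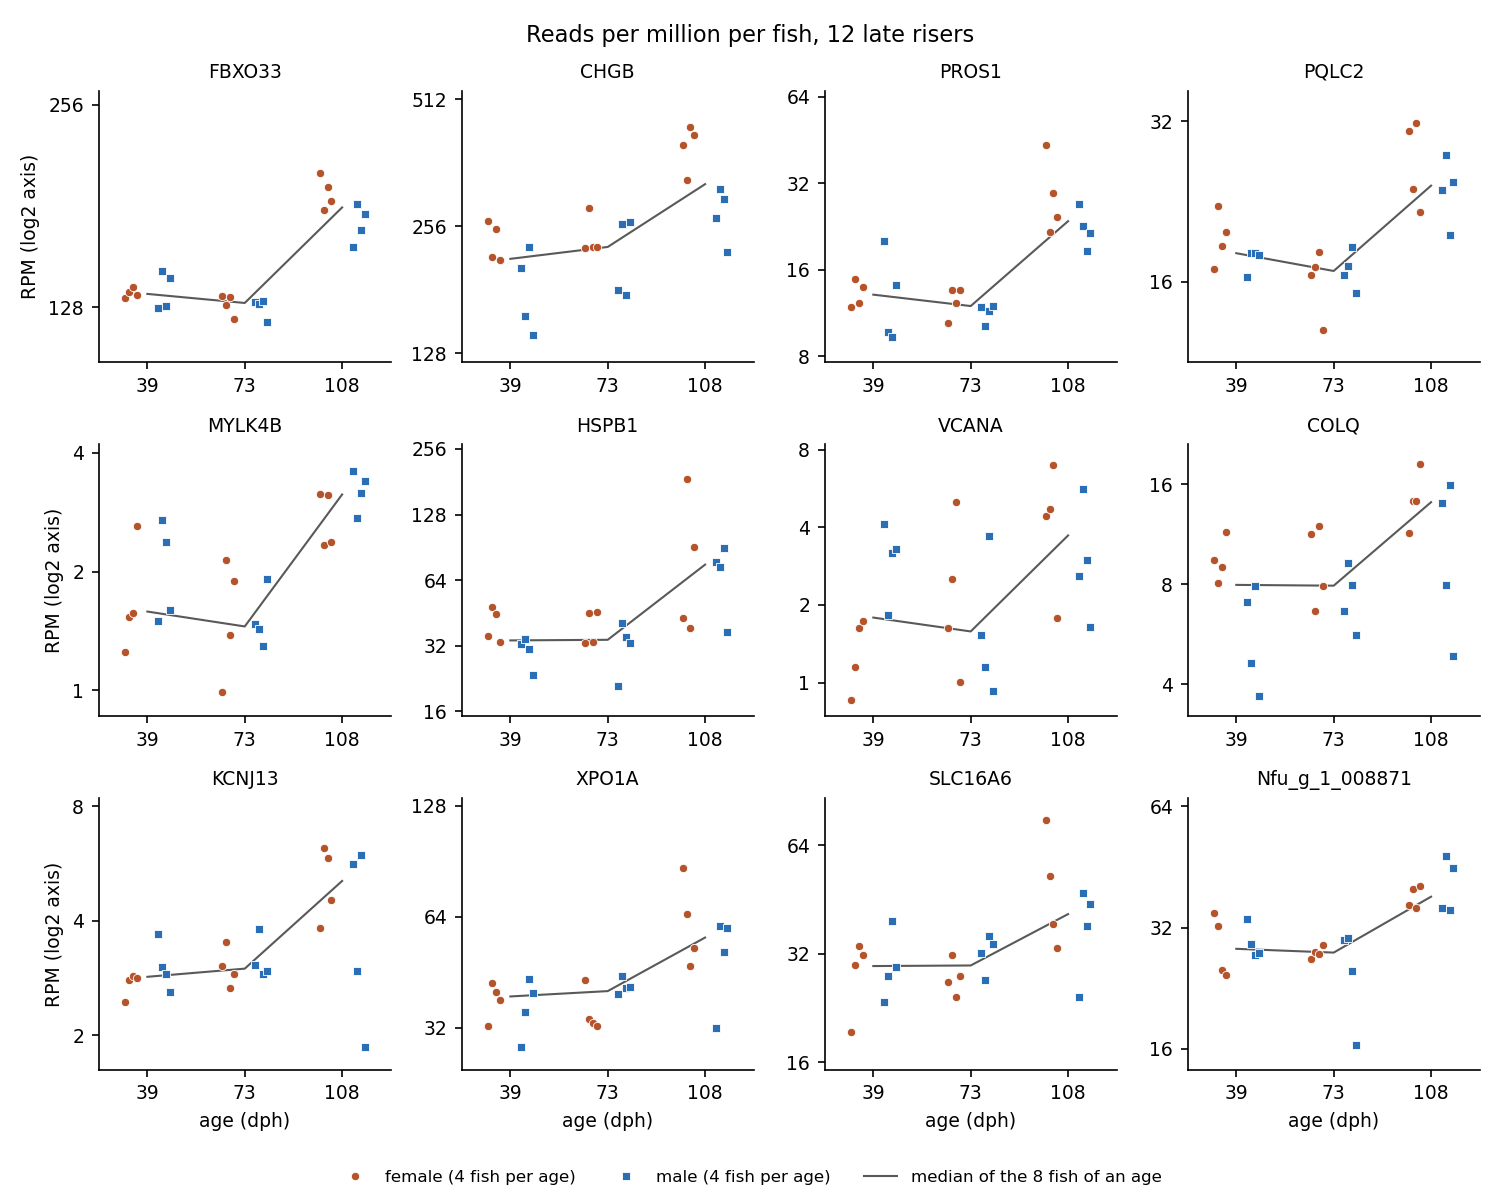
RPM of 12 members in each fish, on a log2 axis that differs between panels, with age on the horizontal axis; circles are females, squares males, and the line joins the medians of 8 fish. In FBXO33, PROS1, PQLC2, MYLK4B and Nfu_g_1_008871 no fish of 108 dph overlaps with 73 dph, whereas HSPB1, COLQ, KCNJ13 and VCANA have old fish inside the younger range.

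Of the cytoskeleton and membrane group, ANXA5B, a copy of the calcium-dependent phospholipid-binding annexin A5, went from a median of 52.2 RPM at 73 dph to 71.5 RPM at 108 dph, and SHROOM4, an actin-binding protein, from 20.1 to 28.3 RPM. The spectrin chain SPTBN1 (3 OF 3) went from 16.6 to 23.6 RPM and the pleckstrin PLEK2 from 1.82 to 3.31 RPM. The metabolic enzymes were MINPP1A, an inositol phosphate phosphatase, and CAHZ, a carbonic anhydrase that zebrafish express in red blood cells. CAHZ ran from 11.2 to 55.6 RPM with a median of 25.1 at 73 dph and from 16.5 to 74.1 RPM with a median of 38.2 at 108 dph, so that the ages overlapped. Genes of erythrocytes, 5 of which were found, summed to 108 to 140 RPM at 39 dph, 158 to 241 RPM at 73 dph and 203 to 255 RPM at 108 dph. One of the 5, the anion exchanger SLC4A1A, was called higher at 108 than at 73 dph (log2 fold change 0.40, edgeR FDR 0.00015). The part of red blood cells in the level of CAHZ was not tested. The ungrouped members were AIM1A, C19H9ORF91, FAM120A, FTCDNL1, SEC14L3, SPECC1L-ADORA2A and RUSC1, with late steps between 0.47 and 0.82. The gene with the fish symbol RUSC1 carries the human name FDPS in the same tables, and as these are unrelated proteins it is given no role. The human name also differs from the fish symbol for TAOK2 (1 OF 2), named TAOK1, ASGR1, named ASGR2, and CAHZ, named CA3. In these cases both names belong to 1 protein family, and the role given is that of the family or of the fish symbol.

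On the scale of read counts, edgeR called 68 members (45.3%) higher at 108 than at 73 dph at a false discovery rate (FDR) below 0.05, and none lower. Over all genes tested, 4.27% were called higher in this comparison. DESeq2 called 82, which held all 68. None was called between 73 and 39 dph by edgeR or by DESeq2, while edgeR called 20.7% of all genes tested in this step. At an unadjusted p below 0.05 in edgeR there were 2 members (1.33%), beside 33.7% of all genes tested. Between 108 and 39 dph 93 members (62.0%) were higher and none lower, where 19.0% of all genes tested were higher. Since the rule used these ages, the counts describe the members and are no test of the rule. A call sets the mean change against its SE, and does not mean that old and younger fish lay apart. HSPB1, for example, was called in every fit that left out 1 fish, with old fish within the younger range. 46 members were called in every fit that left out 1 fish, and 53 in none of them. VCANA, TAOK2 (1 OF 2), RUNX1T1, MMP15 (1 OF 2) and BAG5 are among the 53. COLQ, NFIC, ABCD2, SLC10A4 and AVPR1A (1 OF 2) were called in only 1 such fit each. Of the 41 members with a role group, edgeR called 24 higher at 108 than at 73 dph with all fish. The edgeR fold change of the early step, which uses all fish and not the median, lay between -0.60 and 0.74, and was over 0.15 in size in 55 members. Flat in the median thus did not mean flat in the mean for these. The edgeR fold change of the late step lay between 0.058 and 1.63, so some members rose far less by this measure than in the medians. Leaving out 1 fish took it as low as -0.26 for Nfu_g_1_019719 and -0.095 for Nfu_g_1_014319. Between 108 and 39 dph the edgeR fold change was below 0 in 1 member (-0.039).

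The members were less abundant than most genes. Their median level at 73 dph was 5.10 RPM (quartiles 2.56 to 12.1), against 22.3 RPM (7.35 to 57.0) for all genes at the level minimum, and 68.7% of the members were under 10 RPM against 31.2% of the genes. Gene length, which the rule did not use, had a median of 2639 bases (quartiles 1583 to 4547) in the members and of 2830 bases (1407 to 4898) in all genes at the level minimum. The members also varied more from fish to fish. The SD of log2(RPM + 0.5) among fish of 1 age and sex had medians over the members of 0.33, 0.34 and 0.39 at 39, 73 and 108 dph, against 0.18, 0.18 and 0.21 over all genes at the level minimum. Over the 47 members at 10 RPM or more at 73 dph the medians were 0.25, 0.32 and 0.32, and over all genes above the same cut 0.14, 0.15 and 0.18. The members and all genes were not matched for level above this cut. A rule that takes the largest differences of medians favours variable genes, and how far it did so here was not tested.

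Both sexes had to show a late step above 0, but not of a given size. The late step had a median over the members of 0.54 in the 4 females per age and of 0.51 in the 4 males per age. It ran from 0.04 to 1.66 in females and from 0.0091 to 1.41 in males, and was larger in females for 86 members and in males for 64. The early step was less alike. It lay within -0.15 and 0.15 in females alone for 82 members, in males alone for 81, and in both for 52, with ranges of -0.79 to 0.93 in females and -1.03 to 1.97 in males. The extremes belong to Nfu_g_1_019730, with -0.79 in females and 1.97 in males, to Nfu_g_1_019719, with 0.93 in females, and to VCANA, with -1.03 in males. VCANA stood at 0.853 to 1.74 RPM in the females and 1.83 to 4.13 RPM in the males of 39 dph. At 73 dph VCANA stood at 1.00 to 5.03 RPM in the females and 0.928 to 3.71 RPM in the males. Its medians of 4 fish thus moved in opposite directions, but within each sex the fish of the 2 ages overlapped. The early step had opposite signs in the sexes for 94 members and the same sign for 56. As the rule bounds the early step over both sexes together, nothing is read from how the early steps of the sexes relate.

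**Figure D4:**
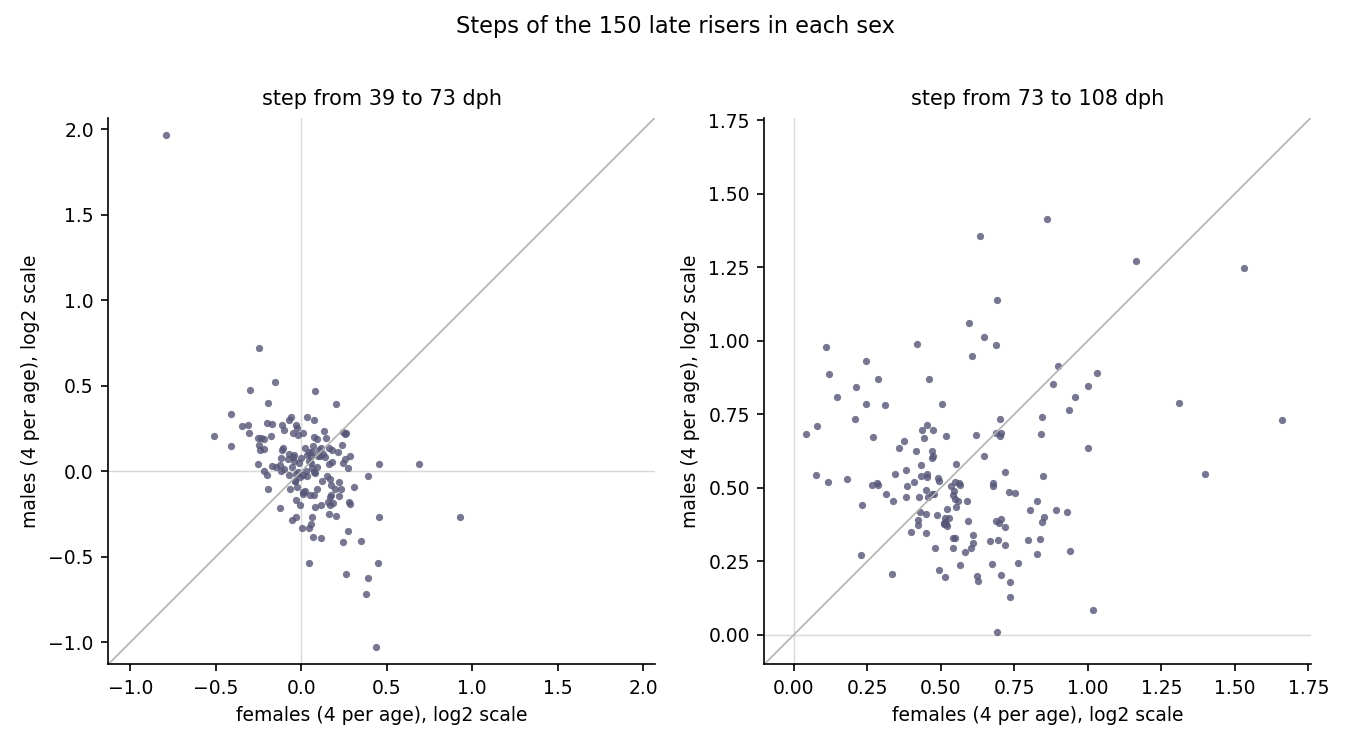
Each point is 1 of the 150 members, with its step in females on the horizontal and in males on the vertical axis as differences of median log2(RPM + 0.5), 4 fish per age and sex; the left panel gives the step from 39 to 73 dph and the right panel that from 73 to 108 dph, and the grey diagonal marks equality. All late steps are above 0 in both sexes, as the rule demands, and early steps reach from -0.79 to 0.93 in females and from -1.03 to 1.97 in males.

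To see the same measures in fish that had no part in the choice, the conditions on level, early step and late step were applied to 1 sex and the other sex was measured. In females alone 584 genes met them, and the 150 with the largest late step had a median late step of 0.67 in females. In males, the same genes had a median late step of 0.26, and 119 of them (79.3%) had a late step above 0, against 48.6% of all genes. 63 (42.0%) reached 0.3 in males, against 10.7% of all genes. Chosen in males, where 517 genes met the conditions, the 150 genes had a median late step of 0.63 in males and of 0.27 in females, where 124 (82.7%) were above 0 against 50.8% of all genes, and 66 (44.0%) reached 0.3 against 10.6%. For an early step near 0, the shares of the chosen genes in the other sex were below those of all genes. Of the genes chosen in females, 37.3% had an early step within 0.15 of 0 in males, where 44.4% of all genes did, and of those chosen in males 29.3% did so in females, against 44.9% of all genes. The median early step of the chosen genes in the other sex was 0.097 in males and 0.20 in females. Of the genes chosen in 1 sex, 43 for females and 35 for males are among the 150 members. No test was made on these shares.

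The difference between females and males over all ages was the comparison the rule did not use. ZFAT, which encodes a zinc finger protein of the nucleus (Nfu_g_1_013487), was the only member that edgeR called by sex, 1 of 150 beside 0.0517% of all genes tested. It was lower in females, with 33.4 ± 6.86 RPM (SD, n = 12) against 44.7 ± 8.65 RPM (SD, n = 12) in males, and its log2 fold change was -0.41 with an SE of 0.062 (FDR 0.0042 in edgeR). It was the only gene of the 19358 tested that edgeR called lower in females, 0.00517% of them. At 39 dph the females stood at 33.9, 26.2, 29.9 and 32.2 RPM and the males at 35.5, 38.6, 43.7 and 39.2 RPM. At 73 dph the females stood at 29.9, 32.1, 24.5 and 27.8 RPM and the males at 41.9, 36.9, 36.3 and 43.7 RPM. At 108 dph the values were 39.6, 48.1, 41.9 and 34.9 RPM in females and 46.2, 59.4, 56.3 and 58.0 RPM in males. Every female was thus below every male of its age at 39 and 73 dph, and at 108 dph 1 female overlapped with 1 male. The late step was 0.49 in females and 0.53 in males, so that each sex started from its own level. Over leaving out each fish in turn and DESeq2, the log2 fold change stayed between -0.44 and -0.39 with a highest FDR of 0.013.

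DESeq2 called 1 further member, Nfu_g_1_002846, with 16.8 ± 5.32 RPM (SD, n = 12) in females and 11.2 ± 4.65 RPM (SD, n = 12) in males. Its difference on the log2 scale was 0.57 (SE 0.15), with an FDR of 0.30 in edgeR and an adjusted p of 0.049 in DESeq2. CHGB was at 292 ± 84.4 RPM (SD, n = 12) in females and 226 ± 55.7 RPM (SD, n = 12) in males, and this difference of 0.35 on the log2 scale (SE 0.093) did not pass (edgeR FDR 0.33, DESeq2 adjusted p 0.068). Its females stood at 330 to 440 RPM at 108 dph and its males at 223 to 315 RPM, whereas at 73 dph the ranges of 228 to 283 and 176 to 262 RPM overlapped. The sex by age term was not tested, since the rule used the late step of each sex. At an unadjusted p below 0.05, 25 members (16.7%) differed by sex in edgeR, 20 of them higher in females, beside 7.46% of all genes tested, of which 56.2% were higher in females. COLQ, CAHZ, LRRC8C and COLGALT1 are among the 20. The median log2 fold change of female versus male was 0.070 over the members and -0.0027 over all genes tested, and 87 members (58.0%) were above 0 against 48.8% of all genes tested.

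**Figure D5:**
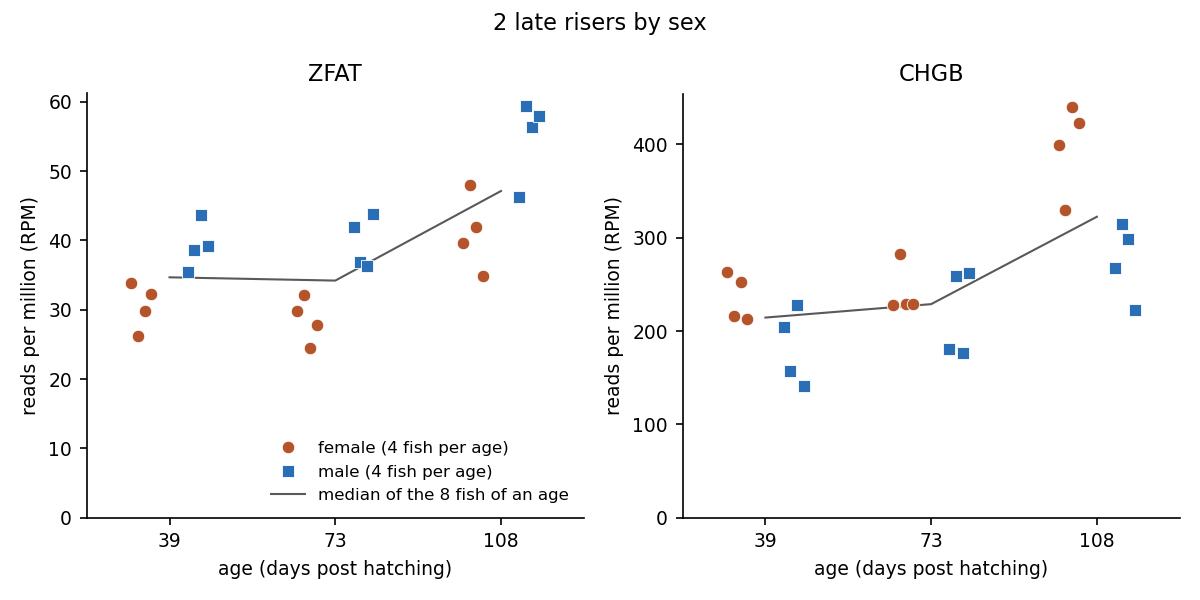
RPM of ZFAT (left) and CHGB (right) in each fish by age, with circles for females, squares for males and a line through the medians of 8 fish. For ZFAT every female lies below every male at 39 and 73 dph, and for CHGB the females of 108 dph, at 330 to 440 RPM, lie above the males, at 223 to 315 RPM.

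Whether the members moved together among like fish was described by the deviations of log2 TMM-scaled read counts from the mean of each age and sex, over 24 fish that share 6 group means. Pairs of members were mostly unrelated, with a median Pearson r of 0.045 over 11175 pairs, beside -0.00042 for pairs of all genes at the level minimum. 29 pairs had an r over 0.8 (0.260% of pairs, against 0.0459% of pairs of all genes), and 31 members took part in them. For a sum over members, the deviations of each member were first divided by their SD. The r of a member with the sum of these scaled deviations of the other members had a median of 0.23. It was over 0.5 in 24 members (16.0%, against 3.30% of all genes at the level minimum) and below 0 in 33. The mean scaled deviation of the members had an r of -0.33 with library depth, and of -0.10 without the 2 shallowest libraries.

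Some members formed small sets. GUCY2F, FAM120A, RUSC1, Nfu_g_1_001607, Nfu_g_1_006102, Nfu_g_1_015505, Nfu_g_1_014376 and Nfu_g_1_017099, a set picked after these values were seen, had r between 0.65 and 0.90 in all 28 pairs. Their mean deviation was lowest in 73 dph male replicate 4 (-0.81) and highest in 73 dph male replicate 3 (0.64) and 73 dph male replicate 1 (0.61), so that the males of 73 dph spread widest. COLQ went with SKOR1B (r = 0.80, Spearman's rho 0.79, and r = 0.71 without the 2 fish farthest from the median of COLQ). In each pair the 2 fish left out were those farthest for the gene named first, so extremes of its partner could remain. XPO1A went with SLC16A6 (r = 0.82, rho 0.70, and r = 0.72 without 2 fish), both highest in 108 dph female replicate 1 and lowest among old fish in 108 dph male replicate 1. RUNX1T1 went with Nfu_g_1_009048 (r = 0.89, rho 0.88, and r = 0.84 without 2 fish), and NADL1.1 with Nfu_g_1_025507 (r = 0.90, rho 0.89, and r = 0.83 without 2 fish). For COLQ and KCNJ13, which both were low in 108 dph male replicates 2 and 4, r fell from 0.68 to 0.43 without 2 fish, with a rho of 0.47.

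Lists of pathways and cell types were matched by gene name, so the 102 members without a symbol could not be placed on any. Of 35 lists, 6 held a member, and each of them held 1. These are 6 of the 48 named members (12.5%), beside 15.1% of the 7144 named genes at the level minimum, and nothing about the members is read from this share. Among 34 heat shock proteins and chaperones tested, HSPB1 was the only member. Of that list 3, HSPB1 among them, were called higher and 8 lower at 108 than at 73 dph, and most were called in neither direction. The median log2 fold change of the list was -0.048. Among 28 neuropeptide genes, with CHGB as member, 4 were called higher and 2 lower, and among 62 genes of cullin and RING ubiquitin ligases, with FBXO33 as member, 3 were called higher and 4 lower. Of 71 cytoskeleton genes, with SPTBN1 (3 OF 3), 3 were called in each direction, and of 34 genes of cholesterol and lipid synthesis, with the gene named RUSC1 or FDPS, 3 were called higher and 4 lower. Over all genes tested 4.27% were called higher and 5.01% lower in this step. The lists of lysosome and autophagy with 43 genes tested, oxidative phosphorylation with 50, cytosolic ribosome with 77, mitosis with 40 and DNA repair with 58 held no member. The member PQLC2, a transporter of the lysosome, was not matched to the lysosome list. A list without a member thus does not mean that no member has that role.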

How the data were processed

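RNA of 24 whole brains was sequenced by the authors as single-end reads of stranded poly(A) libraries. The study's text counts fewer brains for these ages than are used here, and which ones it left out is not given in the sources used here. Per the labels and the study's methods, bcl2fastq 1.8.4 wrote the reads, TopHat2 2.1.0 placed each at most once on the hardmasked NFINgb killifish genome, and featureCounts 1.5.0 counted sense-strand reads per gene. The deposited files hold these read counts, the RPM (counts scaled to the reads assigned to genes) and the RPKM (RPM per kilobase), computed by the authors. The deposited RPM equalled the scaled counts to within 4.91e-11. Gene lengths were taken as the ratio of deposited RPM to RPKM. The sources used here give no dissection date or library batch.

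Members were found on the RPM with a pseudocount of 0.5. Tests on the counts used edgeR 4.0.16 (R 4.3.3): genes passing filterByExpr (minimum count 10, 6 groups), TMM scaling, quasi-likelihood F tests of an additive model of age and sex over all 24 fish, and Benjamini-Hochberg adjustment over 19358 genes (FDR threshold 0.05). The SE is the absolute log2 fold change over the root of F. Scripts were tested on simulated counts. Alternatives were DESeq2 1.42.0, its size factors, other filters and pseudocounts, means in place of medians, and leaving out fish. Sex and age came from the labels; replicate numbers only name fish.

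The members, lists, tests and role groups were chosen with earlier results of these data known. Named in the text are the 15 members with the largest late step, members of a list, members called by sex, the genes next to each bound, and members with a symbol of known role; the members of correlated sets, the 7 that separated the ages and those at extremes of sex were added after their values were seen. Symbols were matched by gene identifier to names in the study's supplementary tables, 7368 genes in all, and no other content of those tables was used. No sequence of a member is shown, since the reference used here is of another assembly and does not pair with these identifiers. Some members with a symbol are not reported here by name.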

Additional observations from a re-analysis of the deposited data

Results flagged for a closer look

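The 8 fish of each age were searched for a fish far from the others, in 16 members given by their values, in the mean level of the members and in the library totals. Of 54 groups 4 held such a fish. The cutoff is set for about 1 in 20 groups of normally distributed values. RPM need not be so distributed and groups of 1 age share their fish, so nothing is read from the count. PROS1 was at 43.4 RPM in 108 dph female replicate 1, with the next fish at 29.5 RPM. HSPB1 was at 186 RPM in 108 dph female replicate 2, with the next at 91.2 RPM. KCNJ13 was at 3.70 RPM in 39 dph male replicate 1, with the next at 3.02 RPM. Nfu_g_1_008871 was at 16.3 RPM in 73 dph male replicate 4, with the next at 24.96 RPM.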

How the results depend on the processing

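With a median of at least 5 RPM required at each age, 73 of the 150 members remained eligible, as the other members are less abundant. DESeq2 called 2 members by sex, against 1 by edgeR. The other settings tried left each count within 1.5 times its value: 62 to 82 members called between 108 and 73 dph, none called between 73 and 39 dph, 1 called by sex, and 106 to 150 members that met the conditions, the lowest with means in place of medians. Leaving out each fish in turn gave 51 to 72 members called between 108 and 73 dph, 0 to 0 between 73 and 39 dph, 1 to 1 by sex and 106 to 148 that met the conditions. For ZFAT it gave log2 fold changes of -0.44 to -0.39, all called. No paired analysis was possible because the replicate numbers only name fish and each library came from a different animal. At 1 RPM a gene has 4.60 reads in the shallowest library, which limits the least abundant members.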
